A study of Homo sapiens with 4 samples.

Results

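AP-1 is a dimer of basic leucine zipper proteins, and its 10 genes described here are FOS, FOSB, FOSL1, FOSL2, JUN, JUNB, JUND, ATF3, BATF3 and MAFF. They were chosen by symbol, each symbol matched 1 row, and they are 10 of the 27452 genes in the deposited table. RNA sequencing compared groups of cells labelled HepG2, a human hepatoma line. Cells of the STAT3 shRNA group (2 libraries) expressed hairpin RNA that targets STAT3. Those of the Ctrl shRNA group (2 libraries) carried control hairpin RNA. Both groups were grown in the same serum-containing medium. The labels name neither the hairpin sequences nor the time after transduction. They also do not say whether replicate libraries stem from different cultures, clones or hairpins. The question of the design is what lowering STAT3, a transcription factor downstream of cytokine and growth factor receptors, does to other genes.

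Proteins of the FOS family cannot pair with each other and bind DNA as partners of a JUN protein, whereas JUN proteins also pair among themselves. Most AP-1 genes are immediate-early genes: growth factors, cytokines and stress raise their transcription through MAP kinases within minutes, without new protein synthesis, and the messenger RNAs are short-lived. In liver cells AP-1 takes part in the response to partial hepatectomy, injury and inflammation, and STAT3 is known as a factor that binds beside AP-1 at several acute-phase genes.

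STAT3 was lower in the libraries labelled with its hairpin. It stood at 34.7 and 36.1 CPM (read counts scaled to library size) in the STAT3 shRNA libraries, against 245.03 and 244.3 CPM in the Ctrl shRNA libraries, a log2 fold change of -2.79 ± 0.09 (SE; adjusted p = 3.28e-07, edgeR quasi-likelihood test). Total reads were 25862027 and 17694642 in the STAT3 shRNA libraries and 19283150 and 20133064 in the Ctrl shRNA libraries. The label of the cells did not match their markers: ALB had 0 and 3 reads in the STAT3 shRNA libraries and 0 in both Ctrl shRNA libraries, APOA1 had 1 and 2 reads against 0 in both, and APOA2 was at 0 in all 4. Of the 6 hepatocyte markers found in the table only TF and HNF4A passed the filter on low counts, and neither exceeded 7.20 CPM in any library. The cells are therefore called by their hairpin below. Summed markers of immune, stromal and endothelial cells (7 genes found in the table) came to 55.2 and 55.9 CPM with STAT3 shRNA and 57.6 and 69.1 CPM with Ctrl shRNA, and 1 of them, VWF, was at 0 in 1 Ctrl shRNA library. Members of both lists moved in both directions. COL1A1 fell (14.7 against 40.6 CPM), whereas ACTA2 (9.15 and 6.41 CPM against 2.97 and 4.44 CPM) and CD68 (26.0 against 12.4 CPM) rose. Of the hepatocyte markers HNF4A rose (7.20 and 4.95 CPM against 1.27 and 1.78 CPM) and TF fell (0.900 and 0.435 CPM against 2.02 and 2.14 CPM). AHSG, named after its values were seen, did not pass the filter. It had 11 and 5 reads with STAT3 shRNA and 0 in both Ctrl shRNA libraries. The part of these markers in the results below was not tested.

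The start of a gene holds part of the DNA through which such signals act. Windows from 250 bases before to 50 bases after the start site are shown for the 6 AP-1 genes called in the edgeR test on counts. They are from RefSeq (GRCh38.p14), each in the direction of its gene, 5′ to 3′. Capitals mark matches to the motifs searched on both strands: TGANTCA (the AP-1 site), TGACGTCA (the cyclic AMP response element, CRE), TGACG (its first part, contained in every CRE), TGACATCA (the site of the JUN promoter), TTCNNNGAA (the STAT site), the CArG box of serum response factor, and CATTCATAA, a run noticed on reading the windows.
FOS, chr14:75278578-75278877, plus strand: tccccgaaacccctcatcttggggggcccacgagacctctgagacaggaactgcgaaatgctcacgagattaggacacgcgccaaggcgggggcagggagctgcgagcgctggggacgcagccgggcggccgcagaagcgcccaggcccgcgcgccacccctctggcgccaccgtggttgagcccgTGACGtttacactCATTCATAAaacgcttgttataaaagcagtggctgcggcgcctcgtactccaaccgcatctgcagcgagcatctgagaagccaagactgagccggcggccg
FOSB, chr19:45467746-45468045, plus strand: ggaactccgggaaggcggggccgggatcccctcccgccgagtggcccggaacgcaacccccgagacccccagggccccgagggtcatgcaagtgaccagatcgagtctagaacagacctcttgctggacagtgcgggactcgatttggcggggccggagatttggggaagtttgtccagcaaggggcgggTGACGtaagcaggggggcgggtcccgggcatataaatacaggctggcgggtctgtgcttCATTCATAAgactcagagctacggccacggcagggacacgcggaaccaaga
FOSL2, chr2:28392608-28392907, plus strand: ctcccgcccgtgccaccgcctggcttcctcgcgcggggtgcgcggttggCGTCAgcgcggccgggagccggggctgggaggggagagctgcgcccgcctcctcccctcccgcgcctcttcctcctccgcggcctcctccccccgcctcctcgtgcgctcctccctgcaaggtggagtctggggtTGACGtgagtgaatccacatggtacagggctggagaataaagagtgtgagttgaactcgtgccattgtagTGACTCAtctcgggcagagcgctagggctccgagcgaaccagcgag
ATF3, chr1:212565157-212565456, plus strand: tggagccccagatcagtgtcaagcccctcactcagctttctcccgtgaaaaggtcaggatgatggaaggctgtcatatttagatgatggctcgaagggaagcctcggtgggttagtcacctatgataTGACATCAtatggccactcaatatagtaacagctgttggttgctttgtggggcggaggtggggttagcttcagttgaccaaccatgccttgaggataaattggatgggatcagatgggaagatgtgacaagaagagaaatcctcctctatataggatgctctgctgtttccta
JUNB, chr19:12791236-12791535, plus strand: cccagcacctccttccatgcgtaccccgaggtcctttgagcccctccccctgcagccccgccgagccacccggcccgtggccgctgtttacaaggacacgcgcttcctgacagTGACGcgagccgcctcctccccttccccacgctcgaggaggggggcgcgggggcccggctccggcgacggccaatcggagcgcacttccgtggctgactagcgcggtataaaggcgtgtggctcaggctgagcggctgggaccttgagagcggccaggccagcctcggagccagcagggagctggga
JUND, chr19:18281573-18281872, minus strand: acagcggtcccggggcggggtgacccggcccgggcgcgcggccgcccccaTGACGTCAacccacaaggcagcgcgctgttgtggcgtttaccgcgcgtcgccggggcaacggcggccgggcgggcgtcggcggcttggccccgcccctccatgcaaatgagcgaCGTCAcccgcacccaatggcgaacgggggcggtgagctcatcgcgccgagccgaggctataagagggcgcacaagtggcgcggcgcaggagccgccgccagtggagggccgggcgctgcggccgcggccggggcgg

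The table of windows held 8 of the 10 genes in 10 windows, since ATF3 and MAFF each have 2 start sites. The ATF3 window shown is the first of its 2, and the other held no match. TGACG was found in 7 of the 10 windows (1 each of FOS, FOSB, FOSL2, JUN, JUNB, JUND and MAFF), and in 24.6% of the 35116 windows of the whole table, and in FOS and FOSB it began at positions -64 and -60. The full CRE was found in JUND and MAFF (1.85% of all windows), TGACATCA in JUN and ATF3 (2.61%), and TGANTCA in FOSL2 alone (7.71%). CATTCATAA stood in FOS at -51, in FOSB at -1 and on the opposite strand of MAFF at -30, and in 0.134% of all windows. This run was picked by reading these same windows, so its share of all windows is no test of it. TTCNNNGAA was found in 1 of the 2 MAFF windows (7.66% of all windows) and the CArG box in none of the 10 windows (1.29%). Among the genes called in counts, TGACG was found in FOS, FOSB and FOSL2, called higher, and in JUNB and JUND, called lower. It was not found in the windows of ATF3, called higher. The direction of JUND is uncertain, since it was not lower with a GC offset or in deposited FPKM (below). A match describes the letters of a window and is no measurement of binding. Sequence outside the windows and variants of the motifs were not searched. A window without a match therefore does not mean that the gene lacks such a site.

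Of the 10 AP-1 genes, all of which passed the filter on low counts, 4 rose and 2 fell with STAT3 shRNA at an adjusted p under 0.05 (two-sided edgeR quasi-likelihood test, p-values adjusted by Benjamini-Hochberg over 15199 genes), and 4 did not pass. The background is high: 35.5% of all tested genes were called, 16.8% higher and 18.7% lower. The risers were FOS, FOSB and FOSL2 of the FOS family and ATF3, and the called falls were JUNB and JUND of the JUN family. The median log2 fold change of the 10 genes was 0.26, against 0.02 for all tested genes. CPM of the groups did not overlap for 9 of the 10 genes, 5 higher and 4 lower, where 70.8% of all tested genes did not overlap, 36.5% higher and 34.2% lower. With 2 libraries a group an exact permutation test of a single gene cannot go below p = 0.333, so calls rest on the spread that edgeR shares between genes. In deposited FPKM 5 AP-1 genes were higher and 3 lower without overlap and 2 overlapped, where 66.2% of all genes did not overlap.

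The count of called AP-1 genes is read against a background that moved with the setting. It was 6 with RLE scaling (background 35.1%), 6 with upper-quartile scaling (35.3%), 6 with a filter of 5 CPM (43.5%), 6 with a GC offset (35.8%), 6 with DESeq2 (29.2%), 8 with no filter (23.3%) and 5 at a threshold of 0.01 (19.1%). With limma-trend on FPKM the same 4 genes rose and 0 fell, where 8.88% of all genes rose and 7.8% fell at a pseudocount of 1, and 8.65% and 7.76% at 0.1. Without STAT3 shRNA replicate 1 there were 4 rises and 1 fall (7.19% and 8.92% of all genes), and without STAT3 shRNA replicate 2 also 4 and 1 (7.23% and 8.95%). Without Ctrl shRNA replicate 1 there were 4 rises and 3 falls (45.5% of all genes called, 24.5% lower), and without Ctrl shRNA replicate 2 5 rises and 2 falls (34.3% called, 18.3% lower). FOS, FOSB, FOSL2 and ATF3 were among the rises in each of these settings.

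**Figure D1:**
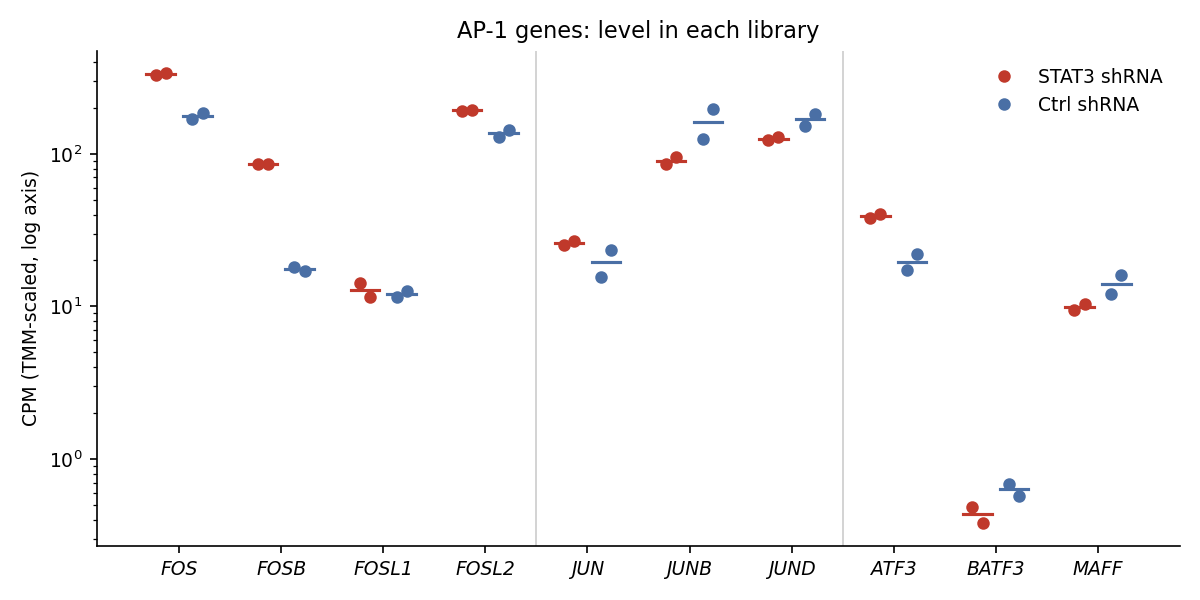
CPM (TMM-scaled, log axis) of the 10 AP-1 genes in each library, STAT3 shRNA in red to the left of Ctrl shRNA in blue; points are libraries and bars are group means. FOSB shows the widest gap, 85.9 and 85.7 CPM against 18.1 and 17.1 CPM, and FOSL1 is the gene whose groups overlap.

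FOSB (ENSG00000125740.14), a FOS-family protein whose splice form lacking the C terminus accumulates under lasting stimulation, had 85.9 and 85.7 CPM in the STAT3 shRNA libraries, against 18.1 and 17.1 CPM in the Ctrl shRNA libraries. The 2 values within each group lay close together and the groups were far apart. Means were 85.8 ± 0.206 and 17.6 ± 0.735 CPM (SD, n = 2 each), a log2 fold change of 2.28 ± 0.10 (SE; 95% interval 2.07 to 2.50) or 4.87-fold, with an adjusted p of 2.63e-06 in the edgeR test. Among 15199 tested genes 247 had a higher log2 fold change, 1.63% of them. The table gives 1 count per gene, so splice forms of FOSB were not separated.

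FOSB lies on chromosome 19 from 45467995 to 45475179 on the plus strand (GENCODE 29, GRCh38, which may differ from the annotation behind the counts), inside the span of ERCC1, a DNA repair gene on the opposite strand. Use of strand in counting is not given. In GENCODE 29 the exons of FOSB share 0 bases with those of ERCC1. ERCC1 had 47.9 and 47.6 CPM with STAT3 shRNA and 44.7 and 55.4 CPM with Ctrl shRNA, so its groups overlapped (log2 fold change -0.07 ± 0.11, SE; adjusted p = 0.675 in the edgeR test). The difference of group means, STAT3 shRNA minus Ctrl shRNA, was 68.2 CPM for FOSB and -2.32 CPM for ERCC1. Whether reads from ERCC1 were counted for FOSB was not tested.

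FOS (ENSG00000170345.10; chromosome 14, 75278774 to 75282230, plus strand), the founding immediate-early gene of the family, had 330.3 and 336.9 CPM with STAT3 shRNA, against 169.7 and 186.1 CPM with Ctrl shRNA. The groups did not overlap, and both pairs were narrow. FOS rose 1.87-fold (log2 fold change 0.91 ± 0.08, SE; 95% interval 0.72 to 1.10), with an adjusted p of 0.00013 in the edgeR test. The gain in CPM was the largest of the 10 genes, 155.7 CPM.

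FOSL2 (FRA2; ENSG00000075426.12; chromosome 2, 28392448 to 28417312, plus strand), a longer-lived FOS-family protein without the strong activation domain of FOS, had 192.0 and 192.4 CPM with STAT3 shRNA, against 128.4 and 143.9 CPM with Ctrl shRNA. Its 2 STAT3 shRNA values were nearly equal and both exceeded the Ctrl shRNA pair. FOSL2 rose 1.41-fold (log2 fold change 0.50 ± 0.09, SE; adjusted p = 0.00287, edgeR). FOSL1 (FRA1; ENSG00000175592.8; chromosome 11, 65892049 to 65900573, minus strand), itself a classical AP-1 target, had 14.2 and 11.5 CPM against 11.5 and 12.7 CPM. These groups overlapped, with a log2 fold change of 0.09 and a 95% interval of -0.27 to 0.45 (adjusted p = 0.690, edgeR), so a rise as large as that of FOS lies outside the interval for FOSL1. The pseudogene FOSL1P1 matched 49.0% of the FOSL1 transcript at 94.5% identity.

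The JUN family went the other way in counts, apart from JUN. JUNB (ENSG00000171223.6; chromosome 19, 12791496 to 12793315, plus strand), a JUN protein that can restrain JUN and slows the cell cycle in several cell types, had 85.8 and 94.7 CPM with STAT3 shRNA, against 125.8 and 196.6 CPM with Ctrl shRNA. The groups did not overlap, but the Ctrl shRNA pair was wide, 0.64 apart on the log2 scale, against 0.14 in the STAT3 shRNA pair. JUNB fell 1.79-fold (log2 fold change -0.84 ± 0.18, SE; 95% interval -1.24 to -0.44; adjusted p = 0.0068, edgeR). The size of the fall depended on the control library: the log2 fold change was -1.16 without Ctrl shRNA replicate 1 and -0.49 without Ctrl shRNA replicate 2. Part of its exon sequence (259 bases, 14.2%) is shared with the opposite-strand gene HOOK2, whose reads came to 6.2% of those of JUNB. HOOK2 was also called lower, at 5.25 and 6.47 CPM with STAT3 shRNA against 8.22 and 11.3 CPM with Ctrl shRNA. Its log2 fold change was -0.75 ± 0.21 (SE, adjusted p = 0.025 in the edgeR test). Whether reads from HOOK2 were counted for JUNB was not tested.

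JUND (ENSG00000130522.5; chromosome 19, 18279760 to 18281622, minus strand), the JUN protein that is present in resting cells, had 122.2 and 128.7 CPM with STAT3 shRNA, against 152.6 and 183.1 CPM with Ctrl shRNA. The groups did not overlap in CPM, and JUND fell 1.34-fold (log2 fold change -0.42 ± 0.10, SE; adjusted p = 0.0126, edgeR). In the deposited FPKM (reads scaled by gene length and library size) the order was not kept: JUND had 164.5 and 187.6 FPKM with STAT3 shRNA, against 136.8 and 172.3 FPKM with Ctrl shRNA, so the groups overlapped and the mean was 1.14-fold higher. The direction of JUND is therefore uncertain.

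The unit and the base composition both bear on JUND. Its reads and FPKM together imply a gene length of 0.765 and 0.713 kilobases in the STAT3 shRNA libraries, against 1.09 and 1.01 kilobases in the Ctrl shRNA libraries, whereas for JUN the implied length was 3.31 and 3.30 kilobases against 3.29 and 3.25 kilobases. The change in FPKM exceeded the change in CPM by 0.61 on the log2 scale for JUND, and in 0.988% of 12647 tested genes above 1 FPKM it exceeded it by more. The longest JUND transcript is 69.7% G and C, the highest share of the 10 genes. Across all tested genes log2 fold changes fell with GC content (Spearman rho -0.339, a description across genes, which are not independent), and with a GC offset for each library the log2 fold change of JUND was 0.02 (adjusted p = 0.804, edgeR). With the same offset JUNB, at 64.9% G and C, was at -0.48 (adjusted p = 0.014, edgeR). Libraries of the same group also differed along GC content. Spearman rho with GC across genes was 0.446 for Ctrl shRNA 2 minus Ctrl shRNA 1. For STAT3 shRNA 2 minus STAT3 shRNA 1 it was -0.121. The part of this difference in the wide Ctrl shRNA pairs of single genes was not tested.

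**Figure D2:**
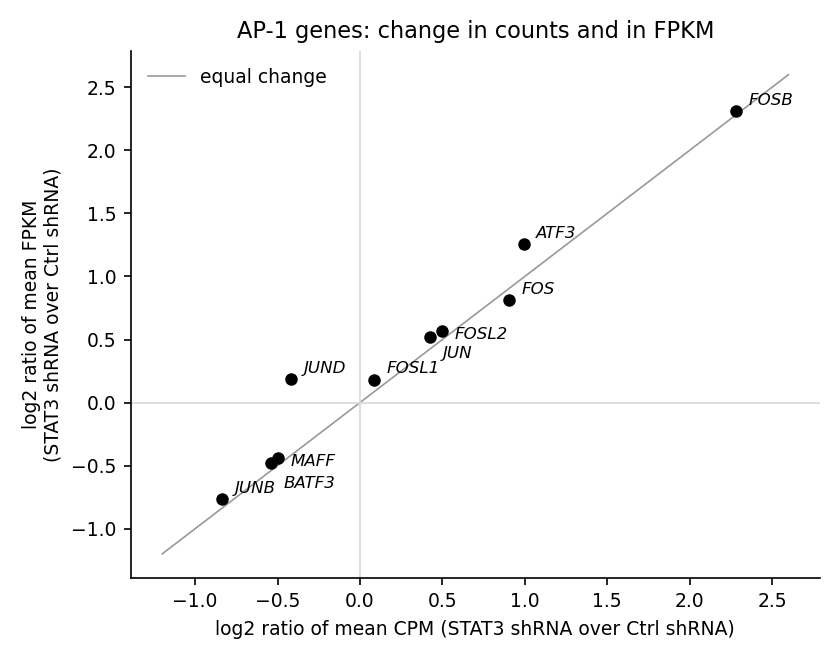
Log2 ratio of group means, STAT3 shRNA over Ctrl shRNA, in CPM (x axis) and in deposited FPKM (y axis) for the 10 AP-1 genes; the line marks equal change. JUND is the gene whose sign differs between the units, and ATF3 changed 1.99-fold in counts and 2.39-fold in FPKM.

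JUN (ENSG00000177606.6; chromosome 1, 58780788 to 58784327, minus strand), the strongest activator of the JUN proteins and a target of JNK, had 25.2 and 26.9 CPM with STAT3 shRNA, against 15.5 and 23.3 CPM with Ctrl shRNA. The groups did not overlap, but the Ctrl shRNA libraries were 0.58 apart on the log2 scale. Its log2 fold change of 0.42 ± 0.17 (SE; 95% interval 0.04 to 0.81) did not pass (adjusted p = 0.0854, edgeR). It passed with a GC offset (log2 fold change 0.58, adjusted p = 0.00946, edgeR) and without Ctrl shRNA replicate 2 (0.74, adjusted p = 0.000458, edgeR), and stood at 0.13 without Ctrl shRNA replicate 1.

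ATF3 (ENSG00000162772.17; chromosome 1, 212565334 to 212620777, plus strand), a stress-induced factor that pairs with JUN proteins, had 38.1 and 40.2 CPM with STAT3 shRNA, against 17.3 and 22.01 CPM with Ctrl shRNA. Every STAT3 shRNA value exceeded every Ctrl shRNA value. ATF3 rose 1.99-fold (log2 fold change 0.99 ± 0.13, SE; 95% interval 0.70 to 1.28), with an adjusted p of 0.000641 in the edgeR test. In deposited FPKM the values were 34.2 and 30.5 against 12.0 and 15.1.

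MAFF (ENSG00000185022.12; chromosome 22, 38200767 to 38216511, plus strand), a small MAF protein without an activation domain, had 9.53 and 10.4 CPM with STAT3 shRNA, against 12.1 and 16.1 CPM with Ctrl shRNA. The groups did not overlap, yet the log2 fold change of -0.50 ± 0.17 (SE) just missed the threshold (adjusted p = 0.0512, edgeR). The log2 fold change of MAFF was -0.73 without Ctrl shRNA replicate 1 and -0.29 without Ctrl shRNA replicate 2. With a GC offset it was -0.23 (adjusted p = 0.242, edgeR). The longest MAFF transcript is 61.9% G and C. The opposite-strand gene PLA2G6 overlaps the span of MAFF with 0 shared exon bases and had 45.8% as many reads. BATF3 (ENSG00000123685.9; chromosome 1, 212686418 to 212699985, minus strand), known from dendritic cells, had 13 and 7 reads with STAT3 shRNA and 13 and 11 reads with Ctrl shRNA. At this depth the 95% interval of the log2 fold change of BATF3 was wide, from -1.77 to 0.73 (adjusted p = 0.499, edgeR). A rise as large as that of FOSB lies outside it. Changes within it could not be told from no change.

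**Figure D3:**
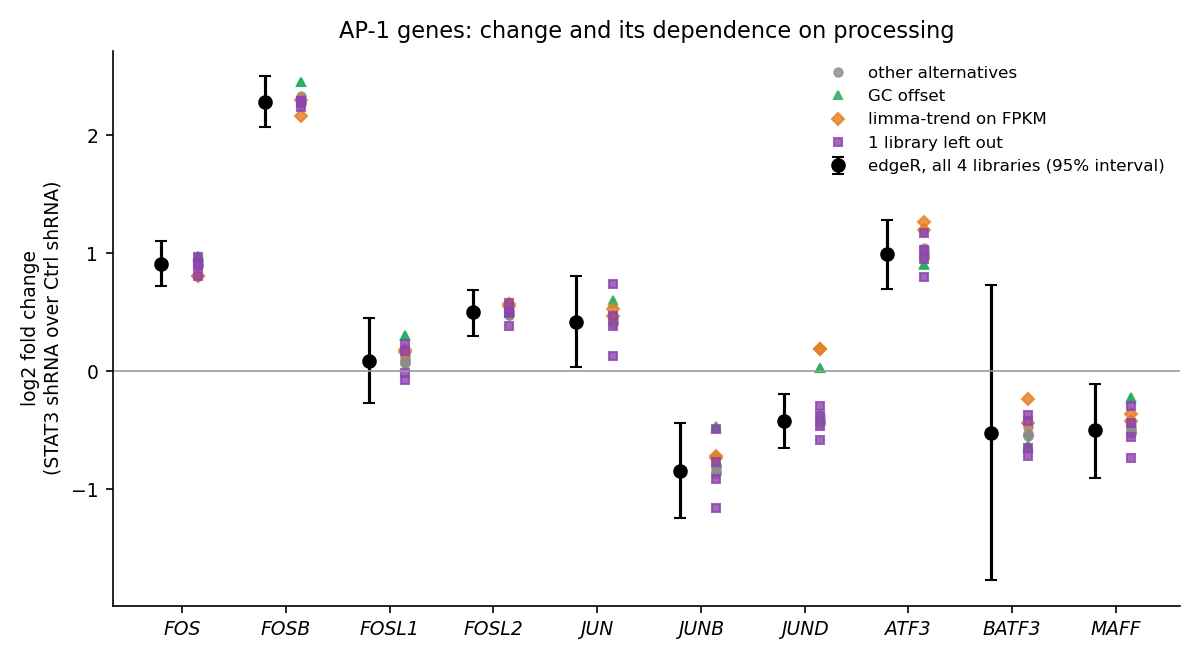
Log2 fold change (STAT3 shRNA over Ctrl shRNA) of each AP-1 gene: black points with 95% intervals are from edgeR with all 4 libraries, small symbols from the alternatives. FOSB stays between 2.16 and 2.45 and FOS between 0.81 and 0.98, whereas JUND crosses 0 with a GC offset and with FPKM.

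Levels can be compared between genes only per length, here in deposited FPKM. With STAT3 shRNA the order of mean FPKM was FOS (294.1), JUND (176.1), JUNB (58.7), FOSB (33.7), ATF3 (32.4), FOSL2 (31.8), FOSL1 (10.6), JUN (8.18), MAFF (4.80) and BATF3 (0.750). With Ctrl shRNA it was FOS (167.7), JUND (154.6), JUNB (99.9), FOSL2 (21.5), ATF3 (13.6), FOSL1 (9.33), FOSB (6.79), MAFF (6.51), JUN (5.72) and BATF3 (1.05). The order depended on the length used. In CPM per kilobase of the longest GENCODE 29 transcript JUND (90.1) and JUNB (88.6) stood above FOS (82.5) with Ctrl shRNA, and FOSB (22.7) stood below FOSL2 (28.7) with STAT3 shRNA. On both scales FOSB had a higher mean than ATF3 and FOSL1 with STAT3 shRNA and a lower one with Ctrl shRNA. Library values of neighbours overlapped for FOSB with ATF3 and ATF3 with FOSL2 in the STAT3 shRNA group, and for FOS with JUND, FOSB with MAFF and MAFF with JUN in the Ctrl shRNA group, so those neighbours were not ordered. By FPKM, 97.7% of tested genes were lower than FOS with STAT3 shRNA and 95.1% with Ctrl shRNA, and for FOSB these shares were 77.6% and 42.6%.

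The make-up of the AP-1 messenger RNA differed between the groups in every library. The 4 FOS-family genes made up 58.6% and 55.1% of the summed FPKM of the 10 genes in the STAT3 shRNA libraries, against 45.1% and 39.9% in the Ctrl shRNA libraries. The 3 JUN-family genes made up 35.3% and 39.3% against 50.6% and 55.7%. FOS alone held 46.5% and 43.9% against 36.7% and 32.7%, FOSB 5.48% and 4.88% against 1.67% and 1.17%, and JUNB 8.57% and 9.47% against 18% and 22.6%. With CPM per kilobase of the longest transcript in place of FPKM, the FOS family held 60.2% and 58.6% against 39.5% and 34.4%. Summed FPKM of the JUN family, 227.7 and 258.3 with STAT3 shRNA and 219.4 and 300.8 with Ctrl shRNA, overlapped between the groups, so the lower share of this family in FPKM went with a larger FOS-family sum, 378.4 and 362.1 against 195.2 and 215.2. In CPM per kilobase the JUN-family sums did not overlap, 119.9 and 128.7 against 155.4 and 212.9. Neither scale carries a GC offset. The longest transcripts of JUNB and JUND are 64.9% and 69.7% G and C, and that of FOS is 52.6%. With a GC offset the log2 fold change was 0.02 for JUND and -0.48 for JUNB. The part of base composition in the shares and sums was not tested.

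**Figure D4:**
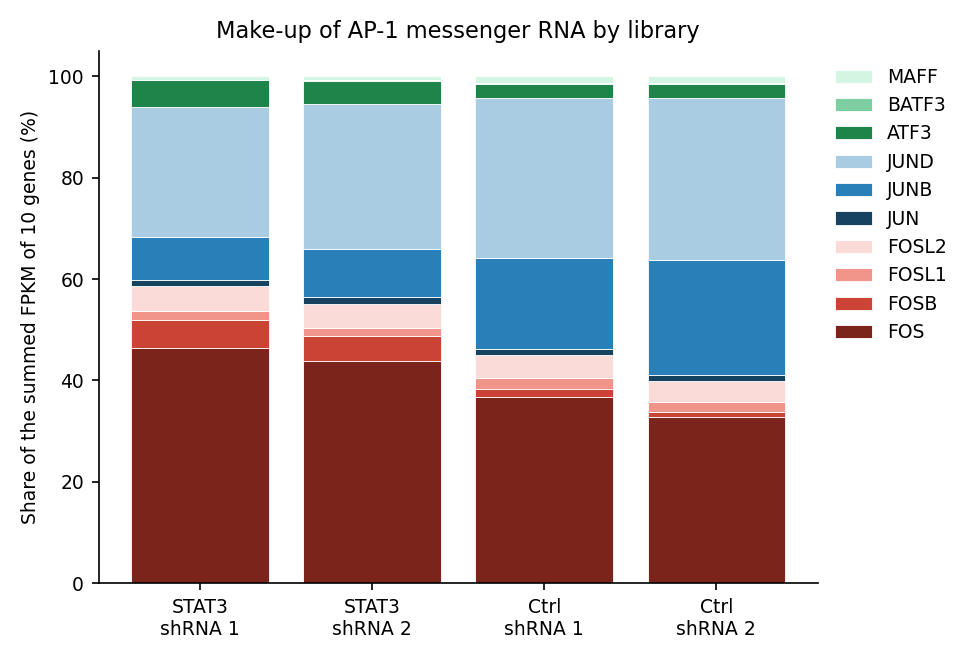
Share of each gene in the summed FPKM of the 10 AP-1 genes in each library, STAT3 shRNA libraries left of Ctrl shRNA libraries; reds are the FOS family, blues the JUN family and greens ATF3, BATF3 and MAFF. The FOS family takes 58.6% and 55.1% of the STAT3 shRNA bars and 45.1% and 39.9% of the Ctrl shRNA bars.

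Other genes of the pathway were called at shares near the 35.5% of all tested genes except in the list of targets. All lists were chosen with earlier results of these data known, so no share is a test of its list. Of 16 tested rows of partners and other basic leucine zipper genes (ATF7 has 2 rows) 1 rose, 4 fell and 11 did not pass (31.2% called, median log2 fold change -0.16), and with a GC offset 0 rose and 6 fell. MAFK, a small MAF protein like MAFF, had 26.5 and 32.9 CPM with STAT3 shRNA against 66.3 and 71.9 CPM with Ctrl shRNA (log2 fold change -1.22, adjusted p = 0.000164, edgeR). JDP2, a repressor that pairs with JUN proteins, had 18.1 and 18.9 CPM against 25.0 and 25.9 CPM (-0.46, adjusted p = 0.0108, edgeR).

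Upstream of AP-1, 3 of 29 tested MAP kinase pathway genes rose, 6 fell and 20 did not pass (31.0% called, median -0.03). The balance depended on the setting: 4 rose and 2 fell with upper-quartile scaling and with a GC offset, and 6 rose and 12 fell without Ctrl shRNA replicate 1. RPS6KA5 (MSK1), a kinase that phosphorylates histone H3 and CREB at immediate-early genes, had 20.3 and 20.1 CPM with STAT3 shRNA against 7.11 and 7.95 CPM with Ctrl shRNA (2.69-fold; adjusted p = 0.000175, edgeR). MAP3K1, an activator of the JNK pathway, rose 1.72-fold, and MAP3K5 (ASK1), a stress-activated kinase of the same tier, fell 2.41-fold. Of 9 tested serum response, ternary complex and MEF2 factors 3 rose, 0 fell and 6 did not pass (33.3% called, median 0.10): MEF2C (14.1 against 6.77 CPM), ELK4 (59.97 against 38.1 CPM) and MEF2A (68.6 against 51.3 CPM), the first value of each pair with STAT3 shRNA. With limma-trend on FPKM 0 of the 9 passed, although the FPKM of these 3 genes were higher without overlap. Of 12 tested genes of AP-1 protein and messenger RNA turnover 2 rose, 2 fell and 8 did not pass (33.3% called, median 0.12). With upper-quartile scaling 4 rose and 0 fell, and without either STAT3 shRNA library 0 fell. ZFP36 (tristetraprolin) and ZFP36L1, which speed the decay of messenger RNAs with AU-rich elements such as that of FOS, rose 1.90-fold and 1.26-fold in counts, and HNRNPD (AUF1), another binder of such elements, fell by 0.26 on the log2 scale. In deposited FPKM ZFP36L1 was lower, 25.4 and 26.4 against 26.9 and 31.9, so its direction is uncertain, and the groups of HNRNPD overlapped.

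Of 31 tested immediate-early genes other than the AP-1 genes, 6 rose, 4 fell and 21 did not pass (32.3% called, median 0.15). With a GC offset 9 rose and 4 fell, and without Ctrl shRNA replicate 2 9 rose and 3 fell. IER5L had 43.6 and 49.8 CPM with STAT3 shRNA against 95.9 and 106.7 CPM with Ctrl shRNA (log2 fold change -1.12, adjusted p = 0.000118, edgeR). NR4A2, an orphan nuclear receptor, had 5.03 and 4.51 CPM against 13.4 and 11.6 CPM, and BTG2, an antiproliferative gene, had 34.1 and 31.3 CPM against 19.7 and 19.1 CPM. The other called members of this list were, chosen after their values were seen, CCN2 (1.19), EGR1 (0.72), TRIB1 (0.70), DUSP1 (0.70, also in the list of targets), PPP1R15A (0.63), NR4A3 (-0.85) and IER3 (-0.41), each value a log2 fold change.

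Of 38 tested genes known from other cells as AP-1 targets 11 rose, 10 fell and 17 did not pass (55.3% called, median 0.10). With limma-trend on FPKM at a pseudocount of 1, 7 rose and 1 fell, where 16.7% of all tested genes were called. PTGS2, cyclooxygenase 2, had 43.1 and 52.4 CPM with STAT3 shRNA against 7.42 and 7.58 CPM with Ctrl shRNA (6.35-fold; adjusted p = 5.6e-06, edgeR). MMP7, the metalloproteinase matrilysin, had 22.1 and 19.8 CPM against 4.35 and 6.80 CPM, and EDN1, the endothelin precursor, 22.8 and 25.1 CPM against 10.1 and 11.03 CPM. Among the falls was PLAUR, the urokinase receptor, at 19.2 and 17.1 CPM against 32.6 and 40.5 CPM, named after its values were seen. The number of falls depended on the setting more than that of rises: 10 rose and 6 fell with a GC offset, 7 and 1 with FPKM at either pseudocount, 7 and 3 without either STAT3 shRNA library, and 8 and 4 at a threshold of 0.01.

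**Figure D5:**
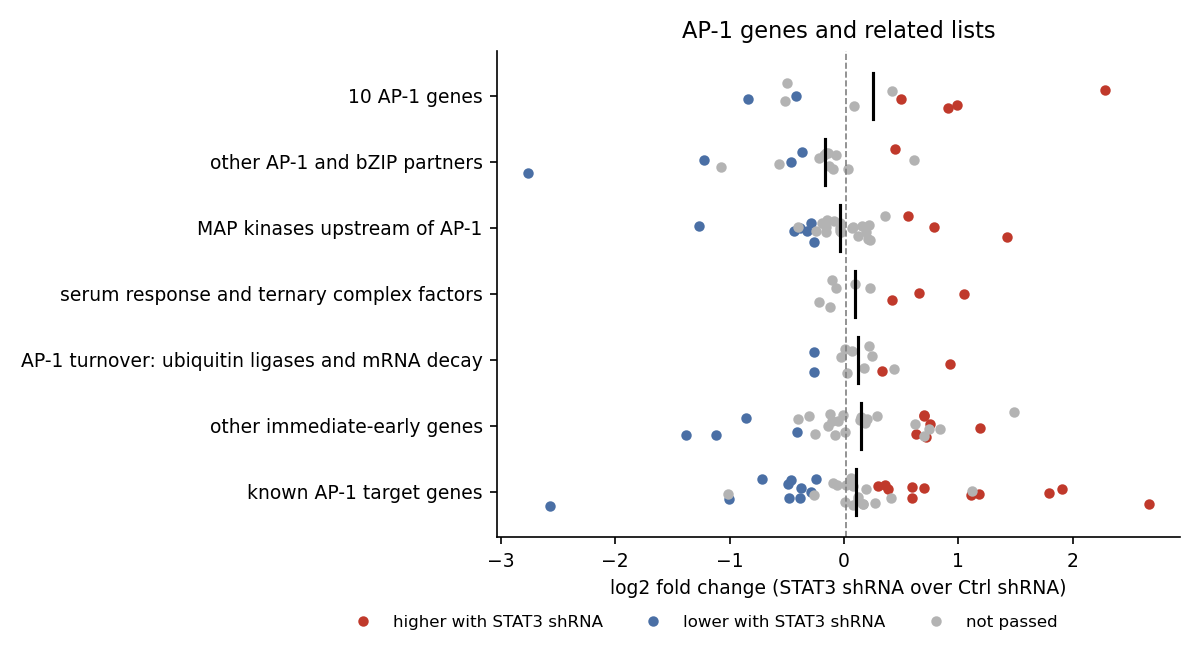
Log2 fold change (STAT3 shRNA over Ctrl shRNA) of the tested genes in each list, red where higher with STAT3 shRNA, blue where lower and grey where the adjusted p was 0.05 or more; black bars are medians and the dashed line is the median of all tested genes, 0.02. Called genes lie on both sides of 0 in each list except that of serum response factors, where 3 rose and 0 fell.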

How the data were processed

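The authors deposited raw read counts and FPKM per gene for 4 libraries, per the file headers. The sources used here do not name the aligner, counter, build, annotation, strand setting or the length behind FPKM. Columns were matched to samples by name, with "Si" read as STAT3 shRNA. The test was the quasi-likelihood F test of edgeR 4.0.16 (R 4.3.3) on counts after filterByExpr and TMM scaling, in a model of group alone. P-values were adjusted by Benjamini-Hochberg over 15199 genes, with a threshold of 0.05. CPM are TMM-scaled, and errors of CPM and FPKM are SDs over 2 libraries. No label says that replicates were separate cultures, so p-values may reflect technical spread only. Replicates were not one library deposited again (chi-square per degree of freedom 4.2 for STAT3 shRNA and 13.9 for Ctrl shRNA).

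Alternatives were RLE and upper-quartile scaling, no filter, at least 5 CPM in 2 libraries, an offset for GC content of the longest transcript, a replicate block, both together, DESeq2 1.42.0, limma-trend (limma 3.58.1) on log2 FPKM with a pseudocount of 1 or 0.1, a stricter threshold of 0.01, and each library left out. With 1 library left out, the lone library of a group is assumed to vary like the other pair. Positions, transcript lengths and GC content are from GENCODE 29, where 25992 of 27452 genes were found by ID without version. No AP-1 gene had a copy at 95% identity over 50% of its transcript (blastn 2.17.0). The edgeR script was tested on simulated data. The AP-1 genes and the lists were chosen with earlier results of these data known. Named from the other lists were the 3 genes with the smallest p-values of each, from the marker lists the 2 most abundant and the defining markers near 0, and any gene marked as chosen later. 1 gene that this rule names is not reported here.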

Additional observations from a re-analysis of the deposited data

How the results depend on the processing

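FOS, FOSB, FOSL2 and ATF3 rose and passed 0.05 in all 14 alternatives run on them. The count of AP-1 genes called higher was 4 or 5 throughout. The count called lower, 2 in the main test, was 3 with no filter and 3 with the replicate block. It was 1 with a GC offset, with or without the replicate block, and 1 at a threshold of 0.01. With FPKM at either pseudocount it was 0. JUND was at 0.024 with a GC offset, 0.025 with the replicate block and a GC offset and 0.19 with FPKM at either pseudocount; without STAT3 shRNA replicate 1 or 2 its call was lost (adjusted p = 0.125 and 0.0672, edgeR). JUNB missed the threshold with FPKM (adjusted p = 0.0753 and 0.0754, limma-trend). FOSL1, not called, ran from -0.074 to 0.23 with 1 library left out. Upper-quartile scaling moved the median of all genes by under 0.1. The causes were not tested beyond the values given.

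Over all tested genes 5396 were called, 2552 higher and 2844 lower. With FPKM the counts were 2535, 1349 and 1186 (pseudocount 1) and 2494, 1315 and 1179 (pseudocount 0.1), and at a threshold of 0.01 they were 2897, 1265 and 1632. With 1 library left out they ran from 2527 to 7291, 1128 to 3367 and 1399 to 3924, the lowest without a STAT3 shRNA library. Of the related lists 51 genes were called, 21 with FPKM at either pseudocount, 29 at 0.01 and 24 to 74 with 1 library left out.

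No label says what the replicate numbers mark. Deviations of same-numbered libraries had a correlation of -0.0242 across genes, which cannot decide whether the libraries were paired. With the replicate block 8 AP-1 genes were called (35.8% of all genes), JUN (0.45, adjusted p = 0.0192, edgeR) and MAFF (-0.49, adjusted p = 0.0392, edgeR) in addition, and 5447 genes in all.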
